A study of Mus with 8 samples.

Results

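Coagulation and fibrinolysis genes were described in mouse liver collected 48 h after partial hepatectomy, an operation that removes part of the liver and lets the remainder grow back. The set was chosen by name, with earlier results of these data known, and covers the clotting system: coagulation factors, their natural inhibitors, kinin genes and genes of the plasmin system. Of 35 symbols, 34 had a row among the 23185 named genes of the expression table, and Cpb2 was not analysed here. The data are 4 liver samples labelled LKB1 KO and 4 labelled Ctrl (called Control here), each on its own array. LKB1 is the protein kinase encoded by Stk11, and all 8 samples followed the same operation and the same interval. The labels name no strain, sex or age of the mice, no deleted allele, and no promoter or cell type that drives the deletion. The labels also do not say whether each sample is a separate animal, so the p-values rest on a spread among samples that may be technical in part.

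Blood clotting is a cascade of plasma proteases, most of which the hepatocyte makes and secretes as inactive precursors. Tissue factor with factor VII starts it, the contact factors and the factor VIII and IX complex amplify it, thrombin turns fibrinogen into fibrin, and plasmin later dissolves the clot. Several factors need a vitamin K dependent modification made in the liver, and the inhibitors that limit clotting (antithrombin, proteins C, S and Z) are liver products too. Other members, such as von Willebrand factor, thrombomodulin and the plasminogen activators, are known chiefly as products of endothelial and other non-parenchymal cells.

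Values are log2 expression from the authors' normalization, differences are LKB1 KO minus Control, and n is 4 arrays per group throughout. A member was called where limma's p-value, adjusted by the Benjamini-Hochberg method over all 23185 genes, was under 0.05. Array medians ran from 3.75 to 3.96 and correlations between arrays from 0.960 to 0.988. LKB1 KO 2 and Control 4 had the lowest mean correlations with their own groups (0.974 and 0.976), so counts are also given without both. LKB1 KO 2 also had the highest median (3.96) and the narrowest spread of values (SD 1.92, against 2.03 to 2.1 on the other arrays). The part of that spread in the differences was not tested. The targeted gene went with the labels: Stk11 was at 3.98, 3.97, 4.84 and 4.22 in LKB1 KO 1 to 4, against 6.69, 6.68, 6.46 and 6.76 in Control 1 to 4 (difference -2.39, SE 0.19, adjusted p = 0.000453). Hepatocyte markers were present on every array: none of the 16 measured passed the test, their median difference was -0.12, and their mean level was 11.35 to 11.42 in LKB1 KO and 11.4 to 11.53 in Control. In such whole tissue, fewer cells of a type and less RNA per cell cannot be told apart.

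Most of the clotting genes stood moderately lower in the LKB1 KO livers. In all, 6 members fell past the threshold and 0 rose: the contact factor gene F11, the anticoagulant genes Serpina10 and Proc, the kininogen gene Kng1, the cofactor gene F8 and the vitamin K carboxylase gene Ggcx. These 6 of 34 are 17.6% of the members, where 1.49% of all genes were called lower and 0.487% higher. The mean was lower in LKB1 KO in 31 members (91.2%, against 47.1% of all genes), and the median difference of the members was -0.39 log2 units, against 0.016 over all genes. In 23 members (67.6%) every LKB1 KO array lay below every Control array, which held for 5.50% of all genes, and in 0 did every LKB1 KO array lie above (3.34% of all genes). At an unadjusted p under 0.05, 24 members were lower and 1 was higher (7.63% and 5.80% of all genes). The members were brighter: their mean level per array was 8.0 to 8.19 in LKB1 KO and 8.46 to 8.57 in Control. Over all genes it was 4.32 to 4.35. Counted in either direction, groups did not overlap in 14 of 20 acute phase genes, 6 of 16 hepatocyte markers and 2049 of all 23185 genes. Whether the members differ from other genes of equal signal was not tested. The count of 6 lower members was 2, 1, 3 and 1 without LKB1 KO 3, LKB1 KO 4, Control 1 and Control 2, and 16 with a trended and robust prior for the variances. Without both LKB1 KO 2 and Control 4, 6 members were lower (F8, F11, F13b, Klkb1, Proc and Proz) and 1, Thbd, was higher.

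**Figure D1:**
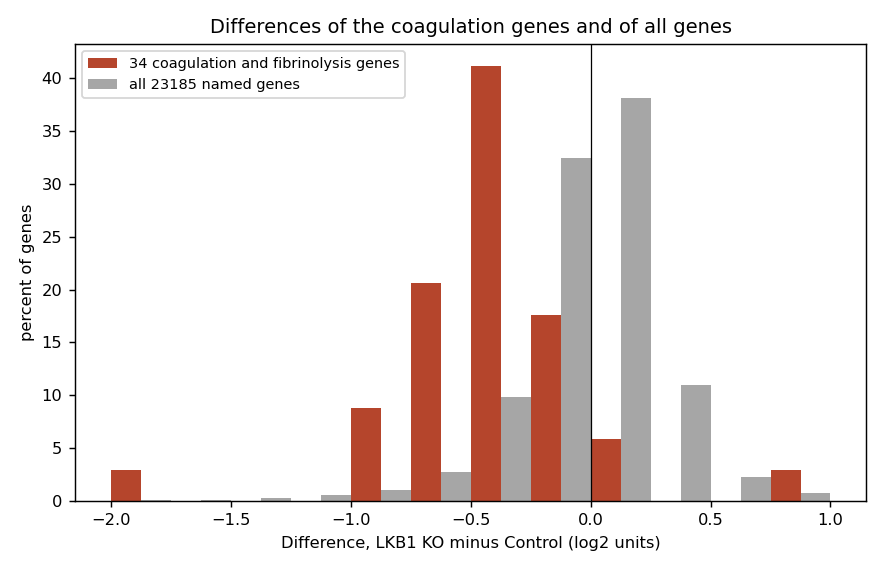
Percent of genes (vertical axis) in each interval of 0.25 log2 units of the difference LKB1 KO minus Control (horizontal axis), for the 34 coagulation and fibrinolysis genes (red) and all 23185 named genes (grey); 0.906% of all genes lie outside the range drawn. The members centre on -0.39, and 61.8% of them lie between -0.75 and -0.25, against 12.6% of all genes.

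The contact and kinin system held the largest difference. F11 (Entrez Gene 109821) encodes factor XI, the protease that activates factor IX. Its log2 values were 6.44, 6.0, 5.98 and 6.55 in LKB1 KO 1 to 4, against 8.59, 8.17, 7.9 and 7.93 in Control 1 to 4. The groups were 1.35 log2 units apart at their nearest arrays. F11 fell by 1.90 log2 units (SE 0.19, 95% confidence interval -2.33 to -1.47, adjusted p = 0.00147), to 26.7% of the Control level. It was called with any single array left out (adjusted p from 0.00252 to 0.00851) and was the only member with an adjusted p under 0.01.

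Kng1 (16644) encodes kininogen, the cofactor of the contact proteases and the precursor of bradykinin. It had 9.23, 8.83, 9.07 and 9.17 in LKB1 KO 1 to 4, against 9.64, 9.71, 9.87 and 9.96 in Control 1 to 4, with no overlap. Kng1 fell by 0.72 (SE 0.14, adjusted p = 0.0238), to 60.7% of the Control level. Its close relative Kng2, whose transcript the same probes may partly detect, stood at -0.26 (adjusted p = 0.525), so the value of each is uncertain. The Kng1 call ended without LKB1 KO 3, LKB1 KO 4, Control 2, Control 3 or Control 4 (adjusted p = 0.0697, 0.0590, 0.0634, 0.0586 and 0.0510). It also ended without both LKB1 KO 2 and Control 4 (0.0646).

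Klkb1 encodes plasma prekallikrein, which releases bradykinin from kininogen. It had 7.64, 7.77, 8.10 and 7.83 in LKB1 KO 1 to 4, against 9.38, 9.18, 9.01 and 7.76 in Control 1 to 4. Control 4 lay among the LKB1 KO arrays, while the other Control arrays lay above all of them. The difference of -1.0 (SE 0.30) did not pass over all arrays (adjusted p = 0.152). Without Control 4 it was -1.35 with an adjusted p of 0.00354. F12, the gene of the protease that starts the contact pathway, stood at -0.32 (adjusted p = 0.350), with groups only 0.06 log2 units apart.

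**Figure D2:**
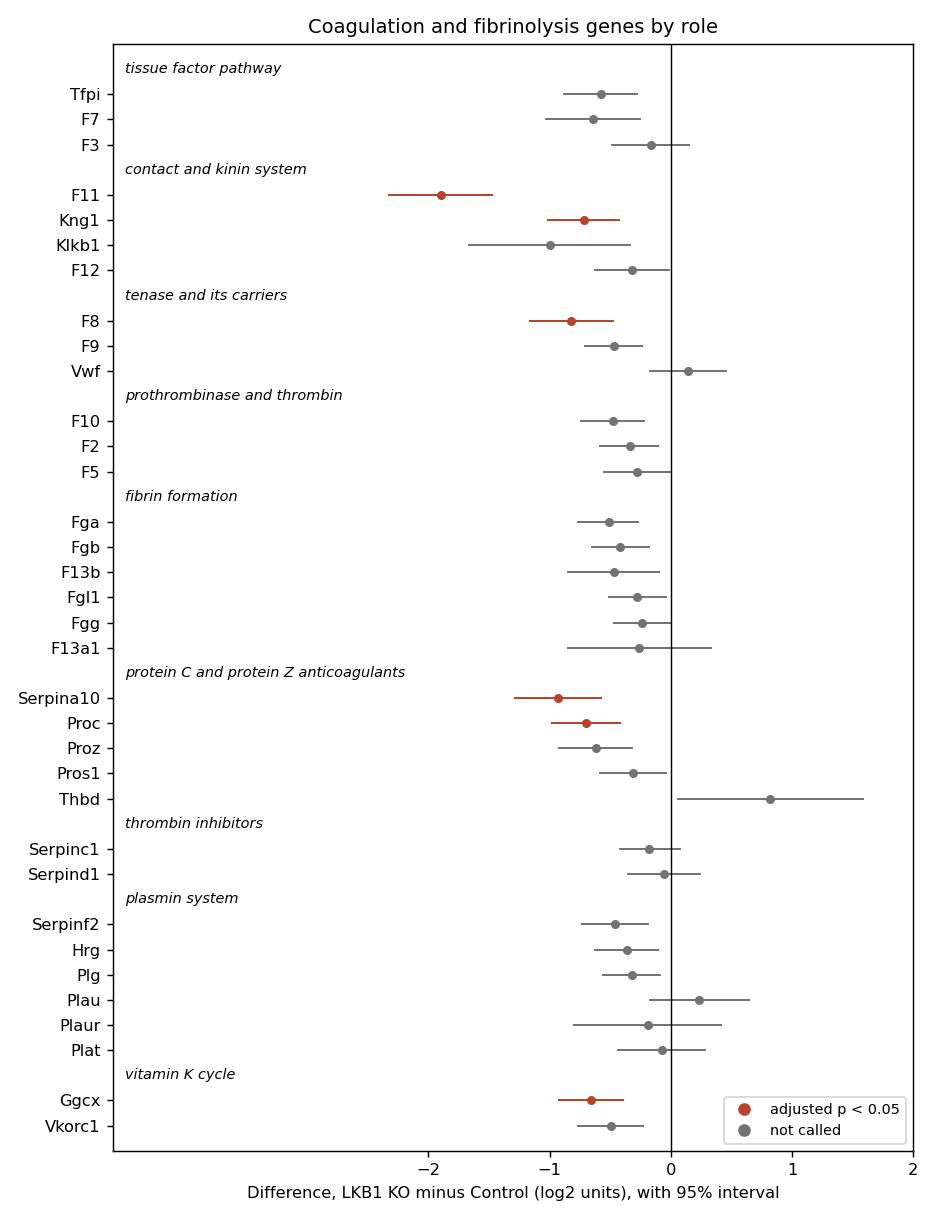
Difference LKB1 KO minus Control in log2 units (horizontal axis) for each of the 34 genes, grouped by role down the page; points are limma estimates from 4 arrays per group, bars are 95% confidence intervals, and red marks an adjusted p under 0.05. F11 stands farthest to the left at -1.90, and Thbd farthest to the right at 0.82.

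In the complex that activates factor X, the gene of the cofactor fell. F8 (14069) encodes factor VIII, which is made mainly by sinusoidal endothelial cells. It had 6.4, 6.26, 5.98 and 5.84 in LKB1 KO 1 to 4, against 7.05, 7.0, 7.05 and 6.67 in Control 1 to 4. The groups did not overlap, and Control 4 was the lowest of the Control arrays. F8 fell by 0.82 (SE 0.16, adjusted p = 0.0260), to 56.6% of the Control level. The call ended without LKB1 KO 3, LKB1 KO 4, Control 1, Control 2 or Control 3 (0.0826, 0.0813, 0.0812, 0.0849 and 0.0651) and under quantile normalization (-0.76, adjusted p = 0.0626). Of 15 sinusoidal endothelial markers, 5 fell and 0 rose, against 1.49% and 0.487% of all genes. All 15 means were lower in LKB1 KO, against 47.1% of all genes. Their mean level was 5.82 to 5.90 in LKB1 KO and 6.21 to 6.52 in Control. All 15 were above background on some array, and their part in the F8 value was not tested. F9, which encodes the protease partner of factor VIII, had 8.97 to 9.15 in LKB1 KO and 9.48 to 9.60 in Control. Its arrays did not overlap, but the difference of -0.47 missed the threshold (adjusted p = 0.0619). Vwf, the gene of the plasma carrier of factor VIII and an endothelial product, stood at 0.14 (adjusted p = 0.742) with overlapping groups.

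The tissue factor pathway had no member past the test. Tfpi encodes the inhibitor of the tissue factor complex. Tfpi had 4.14, 4.16, 4.21 and 4.45 in LKB1 KO 1 to 4, against 4.89, 4.88, 4.52 and 5.0 in Control 1 to 4. LKB1 KO 4 and Control 3 were only 0.07 apart, and the difference was -0.58 (SE 0.14, adjusted p = 0.0684; 0.0401 without Control 3). F7, the gene of the factor VII protease, stood at -0.64 (SE 0.18, adjusted p = 0.112), also without overlap. F3, which encodes tissue factor itself, lay at 3.33 to 3.76 in LKB1 KO and 3.59 to 4.06 in Control. Of those values, 3 in each group fell below 3.73, the 95th percentile of the mean levels of 1354 olfactory and vomeronasal receptor genes, which serves here as a gauge of background.

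The genes of thrombin and of the complex that forms it were all lower in mean, and none passed. F10, encoding the factor X protease, had 9.75, 9.43, 9.59 and 9.47 in LKB1 KO 1 to 4, against 10.07, 10.17, 9.96 and 9.96 in Control 1 to 4. The arrays did not overlap, and the difference was -0.48 (SE 0.12, adjusted p = 0.0844). F2, which encodes prothrombin, was tight within LKB1 KO (10.80 to 10.83) and lay at 11.07 to 11.30 in Control, a difference of -0.34 (adjusted p = 0.184). F5, the gene of the factor V cofactor, stood at -0.28 (adjusted p = 0.369), with Control 4 just inside the LKB1 KO range.

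The fibrinogen chains Fga, Fgb and Fgg, which assemble into the clot protein, were lower in every LKB1 KO array without passing the test. Fga had 11.49, 11.32, 11.29 and 11.37 in LKB1 KO 1 to 4, against 11.86, 11.85, 11.81 and 12 in Control 1 to 4. Its difference of -0.51 (SE 0.11) lay at the edge of the threshold (adjusted p = 0.0501). Fgb stood at -0.42 (adjusted p = 0.0929) and Fgg at -0.24 (adjusted p = 0.388). The 3 chains lay near the top of the scale, Fgg nearest and Fga farthest. Fgg was 0.48 to 0.73 log2 units below the highest value of its array in LKB1 KO and 0.23 to 0.30 below it in Control. Fga was 1.17 to 1.41 below it in LKB1 KO and 0.58 to 0.80 in Control. Under quantile normalization the differences of Fga, Fgb and Fgg were -0.41, -0.28 and -0.14. Fgl1, a fibrinogen-related secreted protein gene of hepatocytes, stood at -0.28 (adjusted p = 0.307).

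Factor XIII crosslinks fibrin and has a catalytic and a carrier subunit. F13b, the carrier subunit gene, lay at 7.35 to 7.64 in LKB1 KO and at 8.19, 8.13, 8.16 and 7.48 in Control 1 to 4. As in Klkb1, Control 4 fell within the LKB1 KO range. The difference was -0.47 (adjusted p = 0.242), and -0.64 without Control 4 (adjusted p = 0.0367). F13a1, the catalytic subunit gene, which macrophages and platelets express, was below the background gauge in 4 LKB1 KO and 3 Control arrays, at a difference of -0.26 (adjusted p = 0.750).

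**Figure D3:**
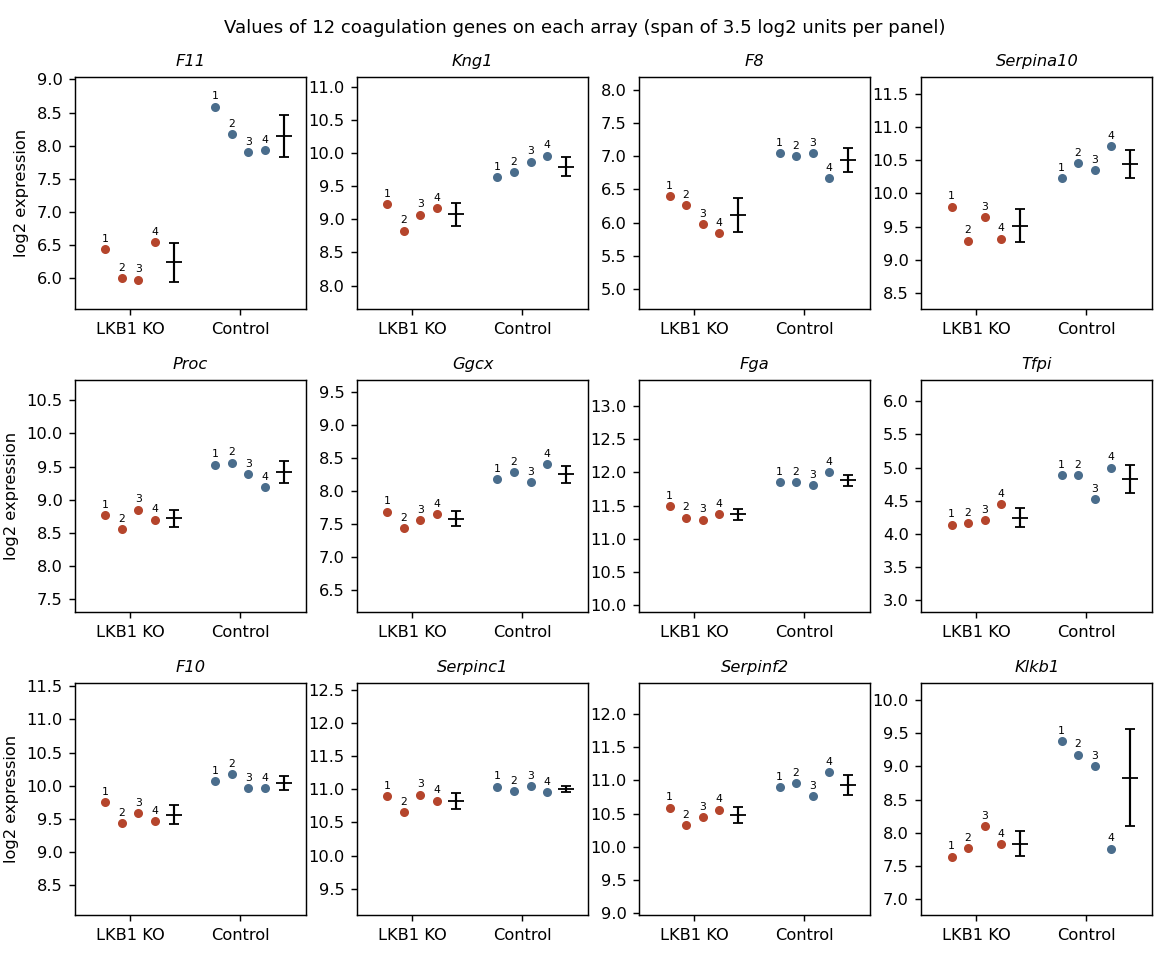
Log2 expression (vertical axis, 3.5 log2 units per panel) of 12 genes on each LKB1 KO (red) and Control (blue) array; small numbers are replicate numbers, and black bars are the mean ± SD of 4 arrays. The groups do not overlap in 11 of the panels; in Klkb1, Control 4 at 7.76 lies among the LKB1 KO arrays.

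Among the anticoagulants, 2 genes fell. Serpina10 (217847) encodes the protein Z dependent protease inhibitor, which blocks factors Xa and XIa. It had 9.80, 9.29, 9.64 and 9.32 in LKB1 KO 1 to 4, against 10.23, 10.46, 10.35 and 10.72 in Control 1 to 4. The groups did not overlap. Serpina10 fell by 0.93 (SE 0.16, adjusted p = 0.0173), to 52.6% of the Control level. The call ended without LKB1 KO 4 (0.0598), without Control 2 (0.0589), or without both LKB1 KO 2 and Control 4 (-0.76, adjusted p = 0.0550). Proz encodes protein Z, the cofactor of that inhibitor, and lay at 8.61 to 8.97 in LKB1 KO and 9.20 to 9.62 in Control, a difference of -0.62 that missed the threshold (adjusted p = 0.0542; 0.0340 without Control 4).

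Proc (19123) encodes protein C, which once activated degrades factors Va and VIIIa. It had 8.77, 8.55, 8.85 and 8.70 in LKB1 KO 1 to 4, against 9.53, 9.56, 9.39 and 9.19 in Control 1 to 4. Every LKB1 KO array was below every Control array. Proc fell by 0.70 (SE 0.13, adjusted p = 0.0234), to 61.5% of the Control level. The call ended without LKB1 KO 1, LKB1 KO 3, LKB1 KO 4, Control 1 or Control 2 (0.0642, 0.0502, 0.0742, 0.0731 and 0.0827). Pros1, which encodes the protein C cofactor protein S, stood at -0.31 (adjusted p = 0.314).

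Thbd, which encodes thrombomodulin, the endothelial receptor that lets thrombin activate protein C, was the member with the highest difference. It had 5.31, 4.45, 5.80 and 5.11 in LKB1 KO 1 to 4, against 4.06, 3.59, 4.54 and 5.18 in Control 1 to 4. The groups overlapped, since LKB1 KO 2 lay below Control 3 and Control 4, and LKB1 KO 4 lay below Control 4. The difference of 0.82 (SE 0.35) did not pass (adjusted p = 0.335), and was 1.34 without both LKB1 KO 2 and Control 4 (adjusted p = 0.0436). The 12 vascular endothelial markers had 0 calls, a median of -0.04 and differences from -0.63 to 0.2. Their mean level was low, at 4.46 to 4.64 in LKB1 KO and 4.55 to 4.76 in Control. Of these markers, Ly6c1, Pdgfb and Sox17 lay under the background gauge on every array.

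The thrombin-inhibiting serpins did not pass the test. Serpinc1, encoding antithrombin, had 10.90, 10.66, 10.92 and 10.83 in LKB1 KO 1 to 4, against 11.04, 10.97, 11.05 and 10.96 in Control 1 to 4. The arrays were 0.05 apart, with a difference of -0.18 (95% confidence interval -0.43 to 0.08, adjusted p = 0.569). Serpind1, encoding heparin cofactor II, stood at -0.06 (-0.36 to 0.25, adjusted p = 0.904) with overlapping groups.

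In the plasmin system none of 6 measured members passed. Serpinf2 encodes the plasmin inhibitor alpha 2-antiplasmin. It had 10.59, 10.32, 10.44 and 10.56 in LKB1 KO 1 to 4, against 10.90, 10.96, 10.76 and 11.12 in Control 1 to 4. The groups did not overlap, and the difference was -0.46 (SE 0.13, adjusted p = 0.112). Plg, the plasminogen gene, stood at -0.32 (adjusted p = 0.211), and Hrg, the gene of the plasminogen-binding histidine-rich glycoprotein, at -0.36 (adjusted p = 0.186), both without overlap. The activators and their receptor lay low: Plat (-0.07), Plau (0.23) and Plaur (-0.19) each had overlapping groups and at least 1 array under the background gauge. For Plaur, Control 4 at 5.16 stood above the other Control arrays, which lay at 3.91 to 4.10.

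Both enzymes of the vitamin K cycle lay lower in LKB1 KO, and 1 was called. Ggcx (56316) encodes the carboxylase that modifies the vitamin K dependent factors. It had 7.69, 7.44, 7.56 and 7.65 in LKB1 KO 1 to 4, against 8.18, 8.28, 8.13 and 8.41 in Control 1 to 4. The groups were 0.44 apart. Ggcx fell by 0.66 (SE 0.12, adjusted p = 0.0221), to 63.2% of the Control level. The call ended without LKB1 KO 1, LKB1 KO 3, LKB1 KO 4, Control 1 or Control 2 (0.0516, 0.0685, 0.0580, 0.0523 and 0.0716), or without both LKB1 KO 2 and Control 4 (0.0624). Vkorc1, whose product recycles vitamin K and is the target of warfarin, stood at -0.49 (adjusted p = 0.0813), without overlap. The 7 members that carry the modification (F2, F7, F9, F10, Proc, Pros1 and Proz) had differences from -0.70 to -0.31, with a median of -0.48. Each of the 7 had LKB1 KO arrays all below the Control arrays, as did 67.6% of all members and 5.50% of all genes. Of the 7, 1, Proc, was called, where 17.6% of all members and 1.49% of all genes were called lower. This grouping was made after the values had been seen.

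Grouped by textbook cell of origin, also after the values had been seen, the members had overlapping ranges of difference. The 23 plasma protein genes of hepatocytes all had a lower mean in LKB1 KO (91.2% of all members, 47.1% of all genes). Their differences ran from -1.90 to -0.06 with a median of -0.46. In 19 of them the groups did not overlap, where LKB1 KO lay wholly lower in 67.6% of all members and 5.50% of all genes. The 9 members made mainly by other cells (F3, F8, F13a1, Plau, Plat, Plaur, Tfpi, Thbd and Vwf) ran from -0.82 to 0.82 with a median of -0.16, and 2 of them, F8 and Tfpi, did not overlap. The sets differed in signal too: the plasma protein genes had a mean level of 9.49 to 9.69 in LKB1 KO and 10.03 to 10.22 in Control, and the 9 others 4.14 to 4.35 in LKB1 KO and 4.12 to 4.73 in Control, with arrays under the background gauge of 3.73 in F3, F13a1, Plau, Plat, Plaur and Thbd. The difference between these sets, and the part of signal level in it, was not tested. Across the plasma protein genes the per-array median deviation from each gene's mean was -0.30 to -0.14 in LKB1 KO and 0.15 to 0.25 in Control. Of all 34 members, LKB1 KO 2 was the lowest array of its group for 16, and LKB1 KO 1 the highest for 15. Control 3 was the lowest of its group for 18, and Control 4 was the highest for 16 and the lowest for 10.

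**Figure D4:**
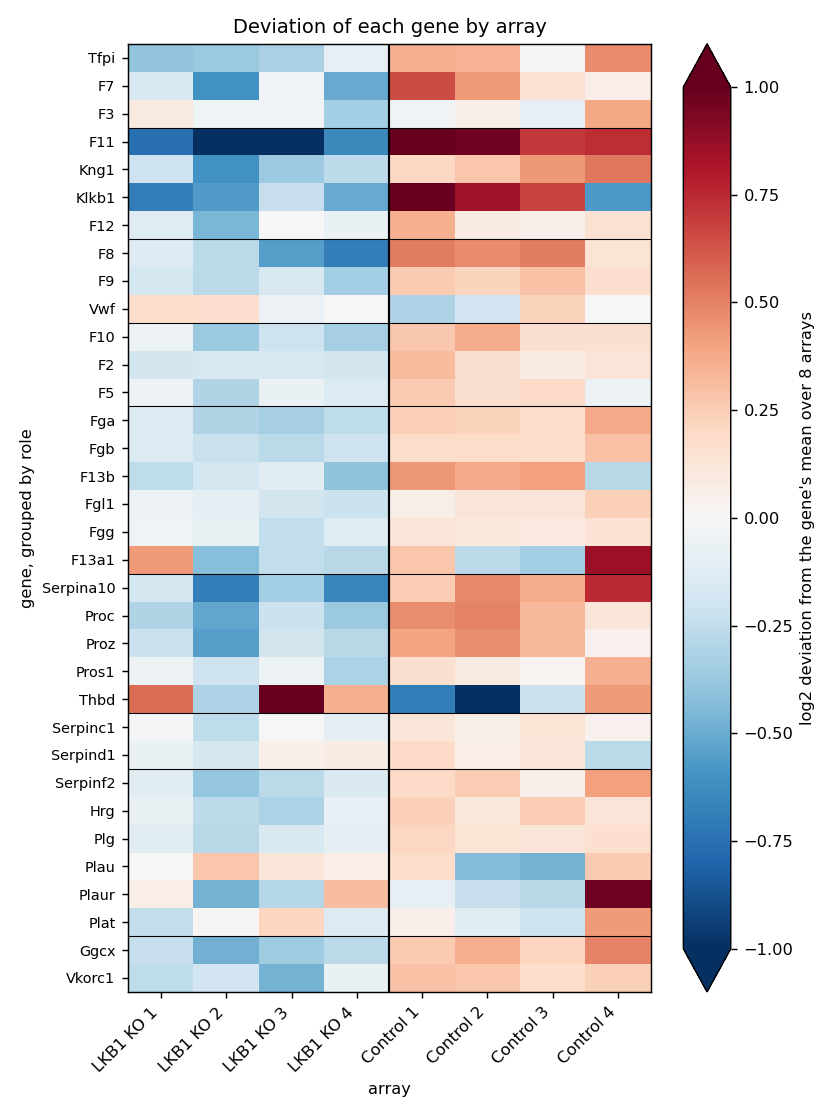
Deviation of each gene from its own mean over the 8 arrays (colour, log2 units, colour range -1 to 1), with genes down the page in role order and arrays across it, LKB1 KO left of Control. Most rows are blue in LKB1 KO and red in Control. Klkb1, F13b and, faintly, F5 are blue also in Control 4. Serpind1 is blue in Control 4 and faintly red in LKB1 KO 3 and LKB1 KO 4. Thbd, Plau, Vwf, Plaur, F13a1, Plat and F3 do not follow the pattern.

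Some members lie next to each other in the RefSeq gene table of the mouse assembly GRCm38.p6, with no other protein-coding gene between them. F11 (-1.90) adjoins Klkb1 (-1.0), and F7 (-0.64), F10 (-0.48) and Proz (-0.62) stand in a row. The fibrinogen genes Fgg (-0.24), Fga (-0.51) and Fgb (-0.42) form another such group, and Hrg (-0.36) and Kng1 (-0.72) have only Kng2 (-0.26) between them. All of these differences are negative, and their sizes differ most within the F11 pair.

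Of 41 other measured genes of clotting, kinin handling and related proteases, 6 fell and 0 rose, against 1.49% and 0.487% of all genes. Their median difference was -0.16, and 3 fell without LKB1 KO 3 or without Control 2. A2m had the lowest difference of the list (-1.43) but was not called (adjusted p = 0.575). Its Control 4 value was 8.63, against 3.58 to 4.03 in the other Control arrays. Anxa2 (-0.49, adjusted p = 0.723) had 8.77 in Control 4 and 5.99 to 6.67 in the other Control arrays. Gas6, which encodes a vitamin K dependent ligand of the TAM receptors, had 5.99, 5.60, 5.41 and 5.65 in LKB1 KO 1 to 4, against 6.75, 7.24, 6.93 and 7.38 in Control 1 to 4 (-1.41, SE 0.18, adjusted p = 0.00324). Lrp1, a hepatic clearance receptor for factor VIII and tissue plasminogen activator, fell by 0.97 (adjusted p = 0.00908). Both subunits of carboxypeptidase N, which trims kinins, fell: Cpn2 by 1.0 (adjusted p = 0.0103) and Cpn1 by 0.55 (adjusted p = 0.0347). Tfpi2, a Kunitz protease inhibitor gene, fell by 0.90 (adjusted p = 0.0149), and Masp1, a lectin pathway protease gene, by 0.88 (adjusted p = 0.0228). Cpn1 lost its call without any single array (up to 0.102). Masp1 lost it without LKB1 KO 1, LKB1 KO 3, Control 1, Control 2 or Control 3 (0.0768, 0.0605, 0.0721, 0.0764 and 0.0553), and Tfpi2 without LKB1 KO 3 (0.0528) or Control 2 (0.0558). Nqo1, a quinone reductase gene that can reduce vitamin K, stood at 1.38 (adjusted p = 0.0755; 0.0366 without Control 3).

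Transcription factor and receptor genes with known roles in hepatic expression of plasma proteins were read beside the members. Of 27 measured, 6 fell and 0 rose, against 1.49% and 0.487% of all genes. They were the nuclear receptor genes Nr1i3 (-1.05, adjusted p = 0.00324), Nr1h4 (-1.26, adjusted p = 0.00473) and Ppara (-1.24, adjusted p = 0.00895), the hepatocyte factor gene Cebpa (-0.99, adjusted p = 0.0108), and the interleukin 6 receptor genes Il6st (-0.85, adjusted p = 0.00967) and Il6ra (-0.93, adjusted p = 0.0353). The Il6ra call ended without any array but Control 4 (up to 0.109). Hnf4a, which encodes a hepatocyte nuclear receptor known to act on many clotting genes, stood at -0.04 (SE 0.14, adjusted p = 0.939). Of 20 listed acute phase genes, 8 fell and 0 rose, against the same shares of all genes (1.49% and 0.487%), with a median of -0.34. Fibrinogen responds to inflammatory signals, but not every gene of that list need do so, and such a response was not tested. Saa4, a serum amyloid A gene, fell by 3.03 (adjusted p = 3.08e-06), with 7.49 to 7.80 in LKB1 KO and 10.52 to 10.79 in Control. Crp (-0.87), Apcs (-1.51), Cp (-0.74) and Lbp (-1.04) also fell, with adjusted p from 0.00440 to 0.0101. Orm3 (-1.93, adjusted p = 0.0211) lost its call without LKB1 KO 1, LKB1 KO 2, Control 1 or Control 2 (0.0589, 0.0557, 0.0597 and 0.0514). Which of these genes bears on the clotting genes was not tested.

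Markers of other cells were read in the same arrays, where 1.49% of all genes were called lower and 0.487% higher. The sinusoidal endothelial genes Clec4g (-0.83), Mrc1 (-0.85), Gpr182 (-0.68), Fcgr2b (-0.77) and Kdr (-0.72) fell, and the last 3 lost their calls in some of the fits without 1 array (up to 0.0634, 0.108 and 0.130). Of 13 Kupffer cell and macrophage markers, 1, Csf1r, fell (-0.78, adjusted p = 0.0378, and up to 0.110 without 1 array). All 13 means were lower, against 47.1% of all genes. Their mean level was 5.95 to 6.35 in LKB1 KO and 6.30 to 7.06 in Control. None of 14 stellate cell, 10 platelet, 12 neutrophil or 11 lymphocyte markers passed. In that order, 11, 3, 9 and 4 of their means were lower in LKB1 KO, against 47.1% of all genes. Their median differences were -0.28, 0.14, -0.3 and 0.15. On every array, 4 neutrophil and 5 lymphocyte markers lay under the background gauge. The mean level of the platelet markers was 3.51 to 3.87 in LKB1 KO and 3.48 to 3.82 in Control, with Gp1bb, Gp5 and Gp6 under the background gauge on every array. Of 7 cholangiocyte markers 1, Prom1, rose (2.21, adjusted p = 0.00967), with 2 Control arrays under the background gauge. That list had 4 means lower, 3 higher and a median of -0.04. Its Cftr, Cldn7 and Epcam lay under the gauge on every array. Of 7 red cell markers 1, Alas2, fell (-1.03, adjusted p = 0.0471). The Alas2 call ended without any array but Control 4 (up to 0.141) and under quantile normalization (0.0796). The red cell list had 3 means lower, 4 higher and a median of 0.02, with Epb42 and Rhag under the gauge on every array. The part of these cells in the members' values was not tested.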

How the data were processed

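The deposited table holds log2 expression values, 1 per gene-level row and array, made by the authors with RMA and Partek per the submitters' processing notes, which give no versions. RMA subtracts background, normalizes between arrays and summarises probes, and it compresses differences of very dim and very bright genes. The sources used here do not give the array design or probe positions. The table has 25206 rows; 23185 carried a single symbol through GEO's platform annotation, 0 carried several, and 2021 were unnamed and left out. Groups were taken from the sample titles. A linear model with the group as its single term was fitted with limma 3.58.1 (lmFit, eBayes) in R 4.3.3, without a filter on level, and adjusted by Benjamini-Hochberg over the 23185 genes. Members, lists and roles were chosen with earlier results of these data known. Named with the value in every sample were each called member and, in roles without one, the member with the smallest p, plus others chosen after their values were seen. From each other list at most 6 called genes were named, by smallest p. On simulated data for this comparison, the fit on 23185 genes recovered 64.6% of genes changed by 1 log2 unit and 8.91% of those changed by 0.5. Alternatives were a replicate block, each array left out, 2 normalizations, a filter on dim genes, other variance priors, array weights, all rows and a stricter threshold. The number of arrays limits the precision.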

Additional observations from a re-analysis of the deposited data

Results flagged for a closer look

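With 4 samples in a group, a value was singled out when its gap to the nearest other sample, as a share of the group's range, was above Dixon's 95% critical value. Among 70 groups tested (34 members and Stk11 in each of the 2 groups), 4 values were singled out, and chance gives about 1 in 20 groups. All 4 lay in Control 4. F13b stood at 7.48 there, with the other Control arrays at 8.13 to 8.19. F8 stood at 6.67, with the others at 7.0 to 7.05. Fgb was the highest of its group at 12.32, with the others at 12.20 to 12.21, and Plaur was the highest at 5.16, with the others at 3.91 to 4.10.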

How the results depend on the processing

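Of the 6 called members, F11 was called under each of the 17 other fits, and the other 5 lost the call in at least 1. The 6 lower members became 2 with a replicate block, 1 to 8 with single arrays left out, 16 with a trended and robust prior and 1 at an adjusted p under 0.01. The extra members under that prior were F2, F9, F10, Fga, Fgb, Proz, Serpinf2, Plg, Hrg and Vkorc1. Without LKB1 KO 3, LKB1 KO 4, Control 1 and Control 2 the counts were 2, 1, 3 and 1. The 0 higher members became 1 without both LKB1 KO 2 and Control 4. The 6 other pathway genes that were lower became 3 to 5 with single arrays left out (3 without LKB1 KO 3 or Control 2), 2 without moderation of variances and 2 at an adjusted p under 0.01. The 0 higher became 1, Nqo1, under quantile normalization, with array weights, and without Control 3 (0 to 1 over single arrays left out). The median of the members lay between -0.44 (without LKB1 KO 1) and -0.31 (under quantile normalization), and Stk11 was called throughout. The direction held in 31 members. The others, none called, turned round: F13a1 (0.08), Plat (0.04) and Plaur (0.23) without both LKB1 KO 2 and Control 4, with -0.16 to 0.05 for Plat and -0.33 to 0.10 for Plaur over single arrays left out. Over all genes, 84 (no moderation) to 467 (array weights) were lower. The labels do not say whether equal replicate numbers pair the arrays. Correlations of same-numbered deviations from the group means were -0.0359, -0.109, 0.183 and -0.0219. LKB1 KO 3 alone correlated best with the Control array of its own number. So few correlations cannot settle whether the arrays were paired. Under the replicate block F11 and F8 were the members called. Leaving out both arrays at once was chosen after seeing the data. The cause of these shifts was not tested.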
